A study of Mus musculus with 10 samples.

Results

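The genes described here are Trp53, which encodes the transcription factor p53, and 9 genes that p53 is known to activate: Mdm2, Cdkn1a, Ccng1, Trp53inp1, Sesn1, Phlda3, Zmat3, Aen and Perp. They were taken by gene symbol, as all probe sets that the platform annotation assigns to these names, and 21 of 45037 non-control probe sets qualified. Those 21 probe sets cover 9 of the 10 genes, out of 18193 genes measured in all. No probe set with 1 symbol was assigned to Trp53, so the transcript of p53 itself was not analysed here. Whether a probe set with several symbols reads it was not examined.

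The samples were mouse acute lymphoblastic leukaemia cells of C57BL/6 background, called NSTY ALL in the labels, which carried the human p210 bcr/abl fusion and a deletion in the Ink4a/Arf locus. Both groups share these lesions, and both passed through 3 serial transplants of 2 to 3 weeks in C57BL/6 recipients prepared with total body irradiation and 5-fluorouracil. In 5 animals the leukaemia grew beside syngeneic C57BL/6 marrow and spleen cells and in 5 beside allogeneic C3.SW marrow and spleen cells, and no group without a transplant is included. Leukaemia was recovered from bone marrow by sorting on green fluorescent protein, with 1 array per animal. The age and sex of the animals, the number of leukaemia clones, and whether animals of a group received cells from the same earlier recipient are not stated. The p-values therefore measure the spread between these 10 animals.

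p53 is a short-lived protein that accumulates after DNA damage or oncogene signalling and then raises transcription of genes for cell cycle arrest, cell death, repair and its own restraint. Mdm2 is the ubiquitin ligase that binds p53 and marks it for destruction, and because p53 activates the Mdm2 gene the pair forms a negative feedback loop. Arf, a product of the Ink4a/Arf locus, binds Mdm2 and shields p53 from it. Cells without Arf therefore lack this link from oncogene signalling to p53, while the link from DNA damage runs through kinases such as Atm and Atr. In B-lineage leukaemia driven by BCR-ABL, loss of this locus is a recurrent lesion.

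To show what p53 reads in these genes, RefSeq promoters of GRCm38.p6 were searched for the p53 consensus decamer and for the full response element, which is a pair of decamers. Each window spanned 250 bases before to 50 after a transcription start. The full element was searched with a gap of at most 3 bases between decamers and at most 2 mismatches, with the central C and G of each decamer kept. The decamer reads the same on both strands. Of the 10 genes, 7 had at least 1 window and 3 did not. Among the 10 windows of those 7 genes, 3 held a full element (in Cdkn1a, Ccng1 and Sesn1), against 1.35% of all 32851 windows, and those of Cdkn1a and Ccng1 had 1 mismatch, against 0.219% of all windows. An exact decamer was present in 7 of the 10 windows, in 6 genes, against 8.356% of all windows. The genes were chosen as p53 targets, so these counts describe the choice and support nothing, and a match is not evidence of binding in these cells.

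The 250 bases before the start are printed for the genes with the closest full elements and for Mdm2, whose difference between groups had the smallest p of the members. Capitals mark the full element in Cdkn1a and Ccng1 and the exact decamer in Mdm2. The windows are chr17:29090729-29090978 on the plus strand for Cdkn1a, where another listed start has no match, chr11:40755287-40755536 on the minus strand for Ccng1 and chr10:117710759-117711008 on the minus strand for Mdm2.
Cdkn1a: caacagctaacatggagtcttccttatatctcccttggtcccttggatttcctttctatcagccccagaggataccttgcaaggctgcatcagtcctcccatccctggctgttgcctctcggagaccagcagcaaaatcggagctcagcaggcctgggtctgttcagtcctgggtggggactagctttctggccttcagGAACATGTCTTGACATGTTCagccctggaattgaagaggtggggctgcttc
Ccng1: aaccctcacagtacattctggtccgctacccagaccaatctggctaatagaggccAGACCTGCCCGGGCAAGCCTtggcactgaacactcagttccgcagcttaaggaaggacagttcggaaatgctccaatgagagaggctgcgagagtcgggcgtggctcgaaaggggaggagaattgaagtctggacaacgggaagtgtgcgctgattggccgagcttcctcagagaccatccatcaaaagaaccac
Mdm2: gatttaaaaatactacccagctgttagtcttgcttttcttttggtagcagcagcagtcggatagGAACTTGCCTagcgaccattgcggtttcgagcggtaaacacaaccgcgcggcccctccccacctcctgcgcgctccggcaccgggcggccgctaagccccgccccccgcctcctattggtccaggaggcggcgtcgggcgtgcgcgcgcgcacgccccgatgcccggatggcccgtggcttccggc
The Cdkn1a element lies 51 to 32 bases before this start and the Ccng1 element 195 to 176 bases before. The Mdm2 decamer lies 186 to 177 bases before. The p53-responsive promoter that is known for Mdm2 is intronic and lies outside the printed window.

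Values are log2 of the deposited linear intensity after quantile normalization, and each gene is given by its probe set of highest mean. Levels of different probe sets depend on the probes and were not ranked against each other. Between 11224 and 13094 of 18193 genes per array exceeded a background limit of 4.50 to 5.32, set from control probe sets for bacterial transcripts. The lower quartile of deposited intensity was higher on the arrays of allogeneic animals 1, 3 and 4 (18.7 to 19.5) than on the other 7 (13.8 to 14.4). The labelled cell type was checked against 11 measured B progenitor genes, of which 10 were above background on every array. The other, Pax5, exceeded the limit on 4 of 5 syngeneic and 2 of 5 allogeneic arrays and had the largest difference of the list (-1.21, adjusted p = 0.281), while the brightest probe set, that of Cd24a, differed by 0.01. Their summed level ran from 16.16 to 16.20 with syngeneic and from 16.18 to 16.23 with allogeneic donor cells. Cdkn2a, the gene of the deleted locus, had means of 4.53 ± 0.24 and 4.24 ± 0.54 (SD, n = 5 each) and exceeded the limit on 0 of 5 syngeneic arrays and 1 of 5 allogeneic arrays.

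The p53 target genes of these Arf-deficient cells were for the most part clearly expressed in both environments, and none passed the test between allogeneic and syngeneic transplants. Mdm2, Cdkn1a, Ccng1, Trp53inp1, Sesn1, Zmat3 and Aen were above background on all 10 arrays, whereas Phlda3 exceeded the limit on 1 array and Perp on 0. By limma with Benjamini-Hochberg adjustment over all genes, 0 of 9 members were called, against 0.583% of all genes (0.506% higher and 0.0770% lower in the allogeneic group). At an unadjusted p under 0.05 there was 1 of 9, Mdm2, against 16.9% of all genes. Of the 9 differences 8 were below 0 in this setting, with a median of -0.18 on the log2 scale against 0.01 over all genes. That count was 5 of 9 when all probe sets of a gene were averaged, with a median of -0.08. It was also 5 of 9 with the probe set of largest variance, with a median of -0.05. The count and the size of the median therefore depend on the choice of probe set.

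Mdm2 had the clearest separation of the members and read lower in the allogeneic group. Its syngeneic log2 levels were 11.85, 11.90, 11.69, 11.58 and 11.91 in animals 1 to 5, and its allogeneic levels were 11.29, 11.31, 11.26, 11.53 and 11.04. All 5 allogeneic values lay below all 5 syngeneic values, though allogeneic animal 4 lay just below syngeneic animal 4. On the deposited scale the lowest and highest values were 3102 and 4042 with syngeneic donor cells and 2158 and 2971 with allogeneic ones. The means were 11.79 ± 0.14 and 11.29 ± 0.17 (SD, n = 5 each), a log2 difference of -0.50 (SE 0.12), with an adjusted p of 0.107 by limma. The allogeneic level was thus 0.707 of the syngeneic one, with a 95% interval of 0.585 to 0.855 that is not adjusted for the number of genes. Mdm2 was the only one of the 9 members whose groups did not overlap, while 4.83% of all genes had such groups, and 1.90% with the allogeneic group lower.

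The Mdm2 difference was below 0 in 19 of 20 other settings and passed the threshold in 3 of them. It was called when the lower 50% of genes by mean were left out (adjusted p = 0.0371), with eBayes set to trend and robust (0.0319) and with array weights (0.0499), settings in which 269, 307 and 720 genes in all were called, against 106 as reported. Over the 20 settings the adjusted p ran from 0.0319 to 0.914. Most of these settings read the same probe set, and some, such as trend and robust, cannot change the difference itself. The other probe sets of the gene were less separated. Probe set 1427718_a_at gave -0.29 (SE 0.17, adjusted p = 0.433 over all probe sets by limma) and 1457929_at gave 0.11 (SE 0.36, adjusted p = 0.906). The latter was near background, above the limit on 4 of 5 arrays in each group, and it was the one taken when the probe set of largest variance stood for the gene. The mean over all 3 probe sets differed by -0.22 (adjusted p = 0.561).

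**Figure D1:**
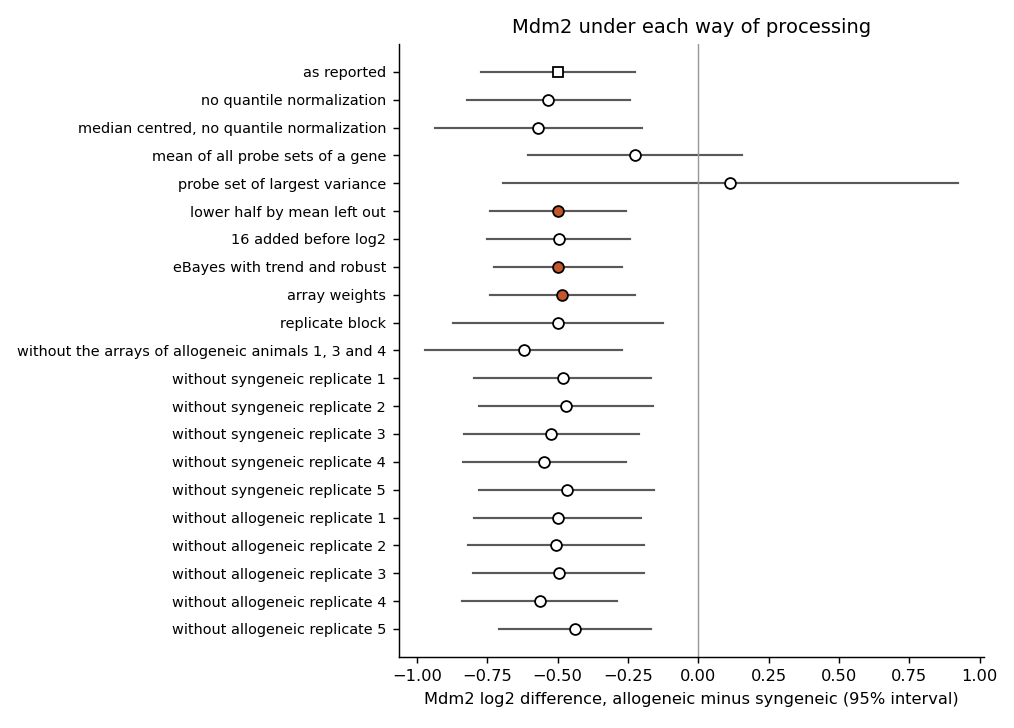
Log2 difference of Mdm2 between allogeneic and syngeneic samples (horizontal axis) under each way of processing (vertical axis), with 95% intervals. The square is the reported value of -0.50, filled symbols have an adjusted p under 0.05, and 0 lies inside the interval for the mean of all probe sets and for the probe set of largest variance.

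Markers of other cell types were read beside Mdm2, because cells of the donor or host could be left in the sort. In no marker list was a gene called by limma, but some markers of several types read higher in the allogeneic group, and others read lower. The summed level of 13 macrophage and monocyte markers ran from 14.13 to 14.32 with syngeneic and from 14.47 to 14.64 with allogeneic donor cells. It too was apart between groups, but it sums linear intensities, and most of it was Ctss, Fcgr3 and Mpeg1. Their syngeneic and allogeneic means were 13.20 and 13.38, 12.25 and 12.46, and 11.95 and 12.63. Of these 13 markers 8 differed in the positive direction, with a median of 0.21, and 2 had an unadjusted p under 0.05 (15.4%, against 16.9% of all genes). Their brightest probe set, that of the protease gene Ctss, was apart between groups (0.18, adjusted p = 0.361). Mpeg1 differed by 0.68 (0.182) and the complement gene C1qc by 0.55 (0.273). The related genes C1qa (-0.30) and C1qb (-0.32) went the opposite way, as did Cd68 (-0.19), Csf1r (-0.11) and Cd14 (-0.06). The difference was largest for Adgre1, the F4/80 antigen gene (1.44, adjusted p = 0.323), which exceeded the background limit on 3 of 5 allogeneic and 0 of 5 syngeneic arrays. On all 10 arrays 7 of the 13 markers were above background, and 2, Cd14 and Itgam, were above it on none.

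The 11 stroma and endothelium markers summed to 9.29 to 9.67 and 9.68 to 10.09, again without overlap. Most of that sum was Pecam1, whose group means were 8.75 and 9.16. All 11 differed in the positive direction, with a median of 0.44, and 4 of 11 had an unadjusted p under 0.05 (36.4%, against 16.9% of all genes). Only 2 of the 11 were above background on all 10 arrays, and 2 were above it on none. Pecam1, an endothelial adhesion gene, differed by 0.41 (adjusted p = 0.240) and the collagen-binding proteoglycan gene Dcn by 0.93 (0.244), the latter above the limit on 3 of 5 allogeneic and 0 of 5 syngeneic arrays. Summed ranges of 9 T and NK cell markers overlapped (12.52 to 12.86 and 12.66 to 13.01), but most of that sum was Cd2, whose group means were 12.46 and 12.61. Of the 9 markers 6 differed in the positive direction, and 4 were above background on all 10 arrays. Gzma, the granzyme A gene, read 8.40 to 9.22 in syngeneic and 9.06 to 10.40 in allogeneic animals. Its difference of 1.06 (SE 0.25) had an adjusted p of 0.0995 by limma, the smallest of all the markers and below that of Mdm2. Prf1 (-0.20), Cd3d (-0.72) and Cd4 (-0.29) went the opposite way. Sums also overlapped for 9 granulocyte markers (10.91 to 12.22 and 10.33 to 12.90), where S100a8 differed by 0.32 (adjusted p = 0.760) and Camp by 0.58 (0.209), and Csf3r was above background on no array. The 6 erythroid markers summed to 7.37 to 7.48 and 7.18 to 7.84, with Klf1 at 0.28 (adjusted p = 0.481) and Epor at -0.54 (0.305). The part of these cells in the Mdm2 difference was not tested. In such bulk samples, fewer cells of a type and less RNA per cell cannot be told apart.

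The other members that restrain or modulate p53 were Ccng1, Trp53inp1 and Zmat3. Ccng1 encodes cyclin G1, which recruits a phosphatase to Mdm2. Its levels were 12.07, 12.01, 12.05, 11.90 and 11.92 in syngeneic and 11.87, 11.91, 11.96, 11.83 and 11.63 in allogeneic animals 1 to 5. The groups overlapped only between 11.90 and 11.96, and the difference was -0.15 (SE 0.10, 95% interval -0.38 to 0.08, adjusted p = 0.494 by limma). Another probe set with the same source sequence in the annotation, 1450016_at, went the opposite way. It read 8.15, 8.78, 8.14, 8.35 and 8.36 in syngeneic and 8.56, 9.03, 8.77, 9.20 and 8.70 in allogeneic animals, a difference of 0.50 (SE 0.18, adjusted p = 0.202 over all probe sets by limma). The remaining probe set, 1450017_at, gave -0.17 (SE 0.15, adjusted p = 0.592 over all probe sets by limma). The direction for Ccng1 therefore rests on which probe set is read.

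Trp53inp1 encodes a nuclear protein that promotes p53 phosphorylation and also acts in autophagy. Its levels were 12.35, 12.32, 12.56, 12.57 and 12.11 in syngeneic and 12.47, 12.07, 12.52, 12.12 and 11.78 in allogeneic animals. The ranges overlapped over most of their length, and the difference was -0.19 (SE 0.17, 95% interval -0.56 to 0.19, adjusted p = 0.606 by limma). Zmat3 encodes a zinc finger RNA-binding protein that acts in p53-dependent splicing and tumour suppression. Its values were 10.07, 9.54, 9.20, 9.41 and 9.77 in syngeneic animals and 8.81, 8.88, 9.80, 8.85 and 9.47 in allogeneic ones. Allogeneic animals 1, 2 and 4 were below every syngeneic animal, while animal 3 stood above 4 of the 5. Zmat3 differed by -0.44 (SE 0.24, 95% interval -0.97 to 0.10, adjusted p = 0.387 by limma), nearly as much as Mdm2 but with a larger spread (SD 0.33 and 0.45).

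Cdkn1a, which encodes the cyclin-dependent kinase inhibitor p21 and is the classical arrest target of p53, had group means that differed by less than its spread between animals. Its levels were 10.27, 10.42, 10.48, 10.94 and 10.63 in syngeneic and 10.07, 10.84, 10.86, 10.34 and 10.39 in allogeneic animals 1 to 5. The highest value was in syngeneic animal 4 and the lowest in allogeneic animal 1, and the groups overlapped almost fully. The difference was -0.05 (SE 0.19, adjusted p = 0.931 by limma), which is 0.968 of the syngeneic level with a 95% interval of 0.722 to 1.298. Changes of the size found for Mdm2, to 0.707, thus lie just outside this interval. The other Cdkn1a probe set gave 0.18 (SE 0.17, adjusted p = 0.642 over all probe sets by limma).

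Sesn1 encodes sestrin 1, which lowers oxidative stress and restrains mTORC1 signalling. Its levels were 11.10, 11.02, 11.08, 11.49 and 10.84 in syngeneic and 11.21, 11.01, 10.74, 10.75 and 11.76 in allogeneic animals. The highest value and both of the lowest were allogeneic, so the allogeneic spread (SD 0.42) was wider than the syngeneic one (SD 0.24), a comparison that was not tested. The mean difference was -0.01 (SE 0.21, 95% interval -0.48 to 0.46, adjusted p = 0.983 by limma). Its 4 probe sets gave differences of -0.24 to 0.29.

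Among the members linked to cell death, Aen was above background on all 10 arrays, Phlda3 on 1 and Perp on 0. Aen encodes a nuclease that degrades DNA in apoptosis. Its levels were 12.31, 12.28, 12.18, 12.02 and 12.39 in syngeneic and 11.83, 12.17, 11.93, 12.15 and 12.21 in allogeneic animals, with allogeneic animals 1 and 3 below the syngeneic range. The difference was -0.18 (SE 0.12, 95% interval -0.45 to 0.09, adjusted p = 0.476 by limma), and its 4 probe sets gave -0.40 to 0.00. Phlda3, a pleckstrin-homology protein that inhibits AKT, read 2.46 to 4.74 in syngeneic and 2.68 to 4.55 in allogeneic animals. Perp, a membrane protein of p53-dependent apoptosis and of epithelial junctions, read 2.55 to 3.86 and 3.06 to 4.05. Neither gene has a usable fold, because both groups were not well above background. Their log2 differences were -0.34 (SE 0.47) and 0.57 (SE 0.28), with adjusted p-values of 0.759 and 0.337 by limma.

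**Figure D2:**
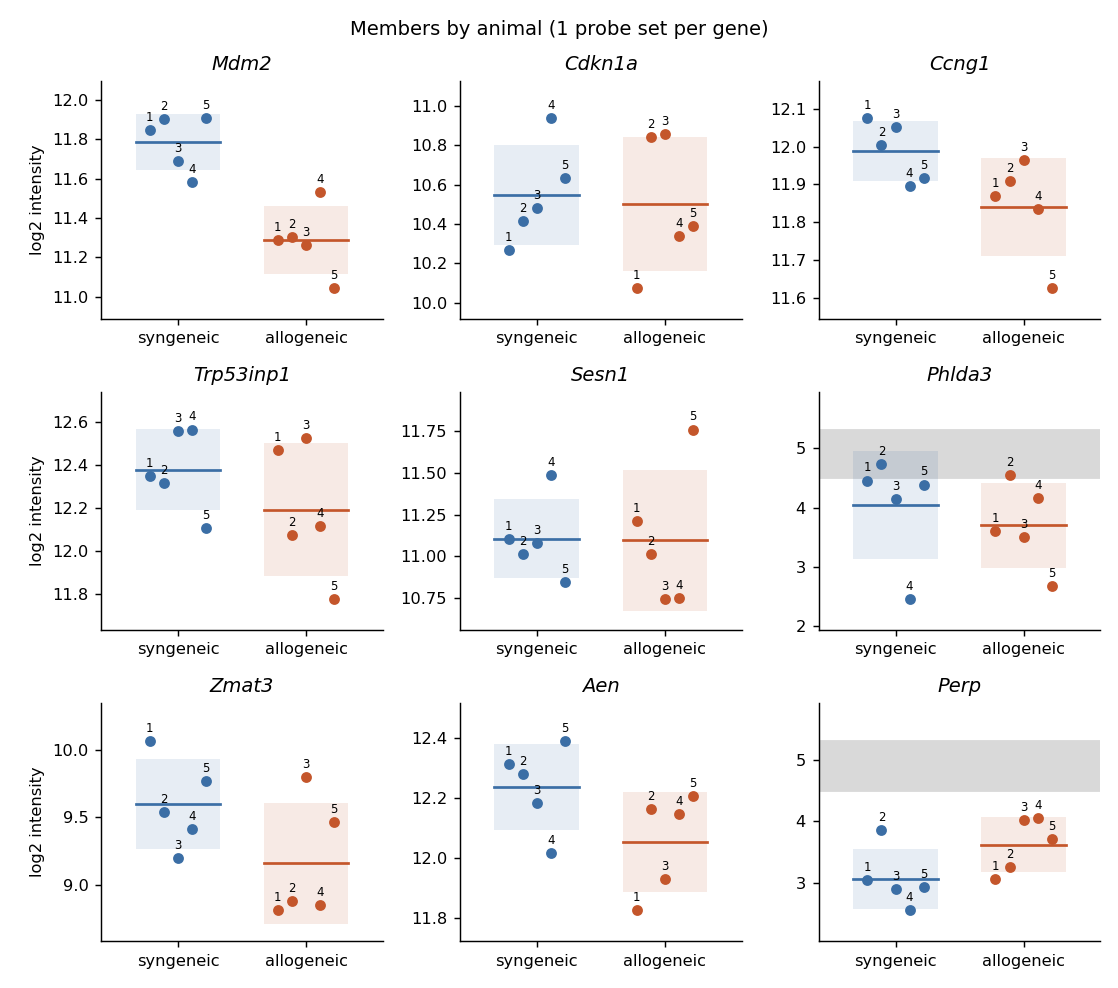
Log2 intensity (vertical axes, each with its own range that does not start at 0) of the 9 measured members in 5 syngeneic and 5 allogeneic samples. Points are animals with their numbers, lines are means, coloured bands are 1 SD and grey bands are the range of the background limit. Mdm2 is the panel without overlap, and Perp lies wholly below the grey band.

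Across all 21 member probe sets 0 were called by limma, against 0.411% of all probe sets. At an unadjusted p under 0.05 the count was 2, 1423605_a_at of Mdm2 (-0.50) and 1450016_at of Ccng1 (0.50), which point in opposite directions. Of the 6 genes with more than 1 probe set, Mdm2, Cdkn1a, Ccng1, Trp53inp1, Sesn1 and Aen, each had differences on both sides of 0, although that of Aen above 0 was only 0.0012.

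**Figure D3:**
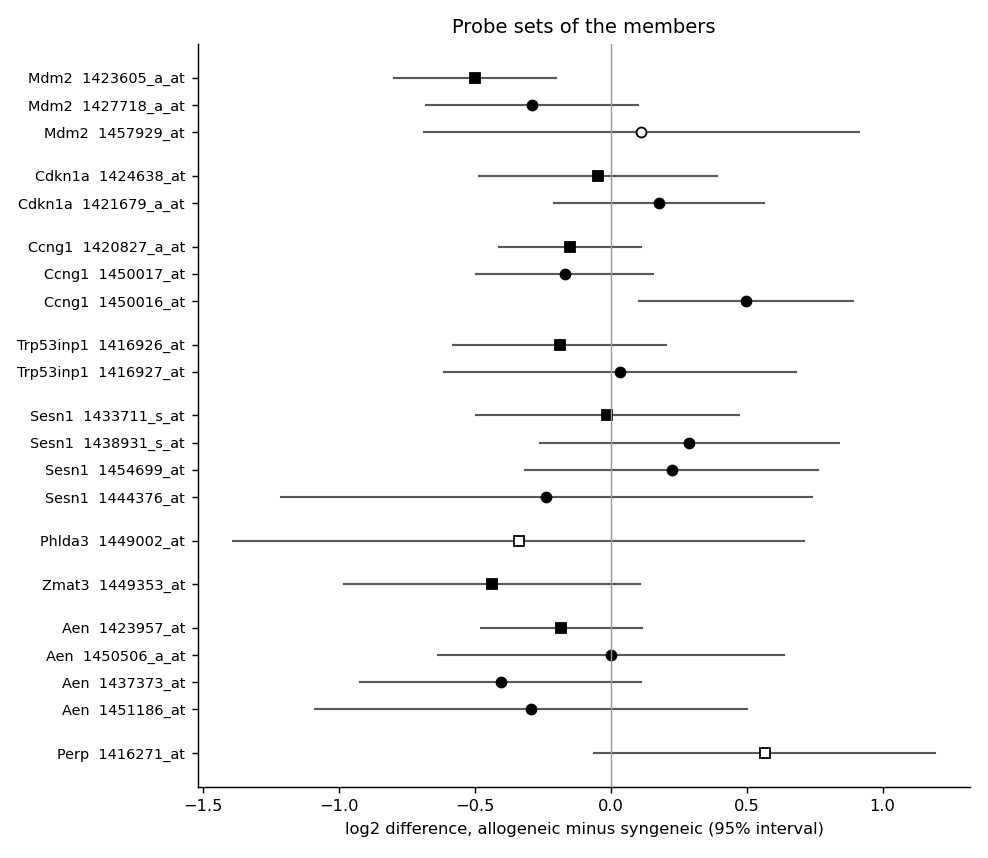
Log2 difference between allogeneic and syngeneic samples (horizontal axis) with its 95% interval for each of the 21 probe sets of the members. Squares are the probe sets that stand for the gene and open symbols are probe sets not above background on all 10 arrays. Intervals exclude 0 for 1423605_a_at of Mdm2 and 1450016_at of Ccng1.

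Correlations between members from animal to animal were centred near 0. With group means removed, Pearson r over the 10 arrays had a median of -0.08 over the 36 pairs of members, and 16 of the 36 were above 0. Over all pairs of the 10455 genes above background on every array the median was 0.02, with 51.4% above 0. The 7 members above background on every array gave a median of -0.10 over 21 pairs. The highest value among bright members was 0.64 for Ccng1 with Trp53inp1, and the lowest were -0.89 for Trp53inp1 with Aen and -0.82 for Mdm2 with Sesn1. All pairs share the same arrays and their scaling, and these values are a description.

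The genes whose pattern was nearest to Cdkn1a by the same measure, over 10 arrays, were 1810062O18Rik (r = 0.944), Kif13a (0.918) and Tgm2 (0.890). Those nearest to Mdm2 were Exo1 (0.934), Ppp1r15b (0.930) and Slc30a5 (0.925). They are the highest of 10455 genes and were selected for that value.

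Genes that act on p53 were read from a list of 28, of which 27 were measured and 0 were called, with a median difference of -0.11. Of the 27 genes 9 differed in the positive direction, among them Trp53bp2 (0.36, adjusted p = 0.256 by limma) and Pml (0.45, 0.277). Mdm4 encodes the partner of Mdm2 that holds p53 inactive. Its levels were 11.42, 10.96, 10.96, 10.90 and 11.10 in syngeneic and 11.02, 10.11, 10.03, 10.33 and 10.06 in allogeneic animals. Allogeneic animals 2 to 5 lay below every syngeneic animal, and allogeneic animal 1 lay within the syngeneic range. The difference was -0.76 (SE 0.20, adjusted p = 0.129 by limma), and with the mean of all 4 probe sets it was -0.40 (0.370). Mdm4 was called with array weights (-0.85, adjusted p = 0.0282), when allogeneic animal 1 was left out (-0.94, 0.0150) and when animals 3 and 4 were left out as well (-0.99, 0.0406). In those settings 720, 630 and 649 genes in all were called, against 106 as reported. The kinase genes Atm and Atr, which signal DNA damage to p53, differed by -0.44 and -0.46 over all animals and were not called. Without allogeneic animal 1, where 630 genes in all were called, they were called at -0.62 (adjusted p = 0.0443) and -0.67 (0.0402), and without any other single animal neither was. Without allogeneic animal 5, for example, they differed by -0.31 (0.455) and -0.37 (0.476). Without animals 1, 3 and 4 Atm was called (-0.81, 0.0370) and Atr was not (-0.80, 0.0530). For Usp7, a deubiquitinase of Mdm2 and p53, the difference was -0.34 (adjusted p = 0.225), for the deacetylase gene Sirt1 -0.42 (0.237) and for the p53 relative Trp63 -0.45 (0.251).

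Other targets of p53 gave 1 call in 39 measured genes, against 0.583% of all genes. Of 13 measured apoptosis targets Fas rose and 12 were not called, with a median of -0.12. Fas, a death receptor, had levels of 6.38 to 6.63 in syngeneic and 7.69 to 8.07 in allogeneic animals, without overlap. Fas rose by 1.36 in log2 units (SE 0.11) with an adjusted p of 0.000390 by limma, and 2.94% of all genes had such a separation with the allogeneic group higher. With the animal number as a block the same difference had an adjusted p of 0.0522 and was not called. Apaf1, the apoptosome scaffold, differed by -0.27 (adjusted p = 0.389), by -0.17 without allogeneic animal 5 and by -0.60 (0.0497) without allogeneic animals 1, 3 and 4, where it was called among 649 genes in all. Ei24 differed by 0.17 (0.420) and Dram1 by 0.37 (0.421).

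Of 14 measured arrest and feedback targets 0 were called, with a median of -0.01. The smallest p-values were those of the ubiquitin ligase subunit gene Fbxw7 (-0.33, adjusted p = 0.290), the kinase gene Plk3 (0.55, 0.293), the stress gene Sesn2 (0.26, 0.307) and the mitotic gene Ckap2 (-0.19, 0.362). Of 12 measured repair and metabolism targets 0 were called by limma, with a median of -0.07. Rrm2b, the p53-inducible ribonucleotide reductase subunit, ranged from 11.30 to 11.59 in syngeneic and 10.40 to 11.25 in allogeneic animals, without overlap (-0.49, SE 0.16, adjusted p = 0.182). The mean of its 4 probe sets differed by -0.18 (0.615), and the value was -0.80 (0.0534) without allogeneic animals 1, 3 and 4. The DNA damage recognition gene Ddb2 differed by -0.49 (adjusted p = 0.203), the polymerase gene Polk by -0.42 (0.258) and Cyfip2 by 0.25 (0.389).

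Cell cycle genes that p53 lowers through p21 and the DREAM repressor complex were the least spread of the lists. Of 13 measured, 0 were called by limma and 0 had an unadjusted p under 0.05, with differences from -0.23 for Bub1 to 0.15 for Ccnb2 and a median of -0.02. Ccna2 differed by -0.15 (adjusted p = 0.438) and Kif23 by -0.19 (0.507). Over the 5 lists 13 of 79 genes, or 16.5%, had an unadjusted p under 0.05, against 16.9% of all genes.

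**Figure D4:**
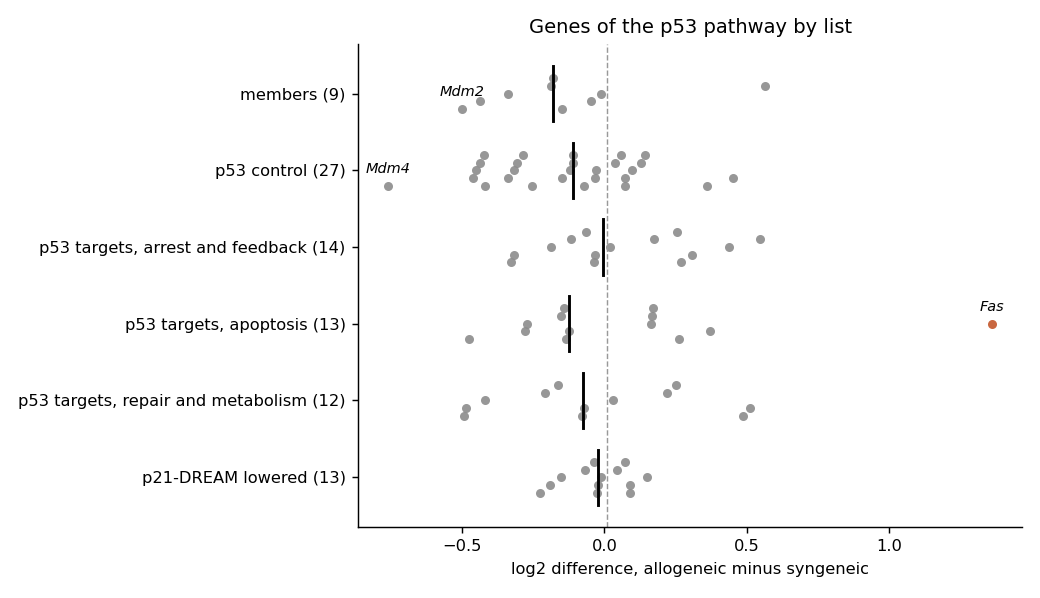
Log2 difference between allogeneic and syngeneic samples (horizontal axis) for each measured gene of 6 p53 lists, with the number of genes in brackets. Black bars are list medians, the dashed line is the median of all genes, and the coloured point is Fas at 1.36, the only gene called.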

How the data were processed

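RNA from sorted leukaemia of 10 animals was measured on 1 Affymetrix array each. The values deposited are linear intensities, 1 for each probe set on each array. How the authors summarised and scaled these intensities is not stated, and biotinylated cDNA was made with NuGEN kits per the labels. The deposited intensities were converted to log2 and then quantile normalized, because the arrays did not share a distribution. Names came from the platform annotation, matched by gene identifier to GRCm38.p6 names for 34754 probe sets, whether or not the name changed. Of 45101 probe sets, 34945 had 1 symbol, 932 several, 9160 none and 64 were controls. Only those with 1 symbol were assigned to a gene. The probe set of highest mean stood for each gene, and low values were not filtered. The background limit was the 95th percentile of 27 control probe sets for Bacillus transcripts on each array.

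Groups were compared with limma 3.58.1 in R 4.3.3 (lmFit and eBayes), with calls at p under 0.05 after Benjamini-Hochberg adjustment. The same fit was run over all probe sets. All adjusted p-values in the text are from limma. The members and lists were chosen with earlier results of these data known. Named were all members, every called gene and up to 4 genes of smallest p in each p53 list, Cdkn2a, the marker of highest mean and that of largest difference in each marker list, and the 3 genes most like Cdkn1a and Mdm2. Atm, Atr, Trp53bp2, Pml, Cd14, Itgam, Mpeg1, Fcgr3, C1qa, C1qb, C1qc, Cd68, Csf1r, Prf1, Cd3d, Cd4 and Camp were named after their values were seen. The number of arrays limits the precision.

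The fit was first tested on simulated data with known changes. It recovered 87.6% of rises and 89.6% of falls of 2 log2 units. Of changes of 1 log2 unit it recovered 54.4% of rises and 60.8% of falls, so many changes of that size would be missed. Alternatives covered normalization, the probe set per gene, a filter, an offset, moderation, array weights, the animal number as a block and left-out arrays. The animal numbers did not pair the samples, as described in the closing section.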

Additional observations from a re-analysis of the deposited data

Results flagged for a closer look

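The 9 members gave 18 sets of 5 values that were checked for a lone distant animal, a check that marks about 1 in 20 by chance, and 1 was marked. Syngeneic animal 4 read 2.46 for Phlda3 against 4.15 to 4.74 in the other syngeneic animals. All of these but 1 were at or below the background limit.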

How the results depend on the processing

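The number of member genes called, 0 as reported, was 1 (Mdm2) when the lower 50% of genes by mean were left out, with eBayes set to trend and robust, and with array weights. The number of member probe sets called, 0 as reported, was 1 under the filter and under trend and robust. Both stayed at 0 in every run without 1 animal. The number of other p53 pathway genes called, 1 as reported, was 2 with array weights and 4 when allogeneic animals 1, 3 and 4 were left out, and 1 to 4 without 1 animal, where 4 came without allogeneic animal 1. Over all genes 106 were called, against 67 with the probe set of largest variance, 269 with the filter, 252 with 16 added before log2, 307 with trend and robust, 720 with array weights, 649 without allogeneic animals 1, 3 and 4, and 55 to 630 without 1 animal (630 without allogeneic animal 1). Of probe sets 185 were called, against 631, 510, 482, 1398 and 2035 under the filter, the offset, trend and robust, array weights and the removal of 3 arrays, and 70 to 2035 without 1 animal. Same-numbered animals deviated together with correlations over 0.1 in 2 of 5 pairs, and 2 of 5 syngeneic samples matched their own number best, so the labels' numbers were not taken as pairs. With the animal number as a replicate block 14 genes and 7 probe sets were called, 0 other p53 pathway genes (Fas had an adjusted p of 0.0522) and 0 members. Of the 9 members, Aen, Zmat3, Phlda3 and Perp kept their sign in every setting that could be run, and the filter removed Phlda3 and Perp. Zmat3, Phlda3 and Perp have 1 probe set each, so the choice of probe set could not turn their sign. With all probe sets averaged the sign turned for Cdkn1a (0.0654), Ccng1 (0.0598) and Sesn1 (0.0665), and with the probe set of largest variance for Mdm2 (0.11), Ccng1 (0.50) and Trp53inp1 (0.0351). It turned for Cdkn1a with array weights (0.0428), and without allogeneic animals 1, 3 and 4 for Cdkn1a (0.0705) and Sesn1 (0.284). Without 1 animal Cdkn1a ran from -0.136 to 0.0601 and Sesn1 from -0.179 to 0.0836. None of these values passed the test, and the cause was not tested.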
